A study of Tribolium castaneum with 9 samples.

Results

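Malpighian tubules dissected from adult red flour beetles (Tribolium castaneum, a pest of stored grain) after treatment with carbonyl sulfide (COS), a fumigant gas, were compared with the whole body of untreated adults. The comparison used the libraries that carry these labels, 3 of COS Malpighian tubules and 3 of control whole body, out of 9 in the series. The other libraries are 3 of fat body, the storage and metabolic organ, from COS-treated beetles. All beetles were adults of the phenotype labelled susceptible, and the labels give no dose, time, sex or pooling. Tissue and treatment change together between the groups, and untreated tubules and treated whole bodies were not among the samples, so organ and gas cannot be told apart in any value below. The whole body also holds the tubules itself. In bulk RNA, fewer cells of a type and less RNA per cell cannot be told apart.

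The Malpighian tubules are the insect kidney. A proton pump in the apical membrane, the V-type ATPase, energises the secretion of potassium, chloride and water, and peptide hormones set its pace through cyclic nucleotides and calcium. The tubule cells also carry organic solutes, sugars, metals and vitamins, store or excrete purines and pigment precursors, and bear a brush border on their luminal side. In Tribolium, as in other beetles, the distal ends of the tubules are bound to the hindgut and take part in recovering water from the gut contents.

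Levels are the authors' deposited normalized counts, that is read counts divided by a size factor of each library, and replicates 1 to 3 are given in that order. Log2 fold changes are COS tubules over control whole body, with an approximate SE and a p adjusted over all 5346 genes tested by edgeR's quasi-likelihood test. A gene rose or fell where its adjusted p was under 0.05. The depth worked out for each library was 19866421, 15175796 and 15408298 reads for COS tubules and 13435869, 13898838 and 14803877 for the control whole body. The deposited table lists only 5467 genes, each with a 2-fold or larger difference in at least 1 comparison of the authors. All counts below thus describe genes chosen on these same samples and are not independent evidence.

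The label of the tissue was first set against genes that mark it. The capa receptor, the transcription factors caudal and cut, and 9 of 12 proton pump subunits were higher in the COS tubules, where 23.5% of all genes tested were, with values below. These were picked from lists that moved in both directions. Of 13 peptide hormone receptors 5 fell, and of 8 transcription factors 3 did, and cut was not different past the test from the COS fat body. The tubule markers first set down named aquaporins, but neither caudal nor the capa receptor. Of 5 aquaporins 2 rose and 3 fell. Muscle and fat body genes went the other way. The summed level of 31 muscle genes was 35475, 39175 and 28759 in COS tubules, against 334235, 341865 and 307336 in the control whole body. For 16 fat body genes the sums were 21150, 19878 and 22812 in COS tubules, against 166770, 134357 and 133855 in the control whole body. Muscle and fat body transcripts were thus lower in the tubule libraries but not at 0. Of 62 sensory genes 3 were at 0 in all tubule libraries, and of the nervous system, cuticle, midgut, haemocyte, testis and ovary genes none was.

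Libraries of the same group differed for some sets of genes, and among the controls 1 library stood apart. Between tubule replicates the chi-square distance per degree of freedom was 90.9 (1 and 2), 90.2 (1 and 3) and 110 (2 and 3). By this measure no tubule library stood apart from both others alone. Control replicate 3 stood at a chi-square distance per degree of freedom of 88.2 and 90.3 to control replicates 1 and 2, against 21.4 between those, and the summed testis and sperm level was 86287 in it, against 36961 and 36628 in control replicates 1 and 2. In COS tubules this sum was lowest in replicate 3, at 19430, 24414 and 9867. Both ovary and egg genes in the table followed the opposite order: their sum was 10353, 3580 and 14657 in COS tubules and 1303, 2524 and 758 in the control whole body. Midgut digestion genes summed to 77679, 151388 and 96061 in COS tubules, against 66549, 67935 and 79694 in the control whole body, with tubule replicate 2 the highest. The order of the midgut sum among tubule libraries, lowest in replicate 1 and highest in replicate 2, held in 19.8% of all tested genes. That of the testis sum, lowest in replicate 3 and highest in replicate 2, held in 26.7%. That of the ovary sum, lowest in replicate 2 and highest in replicate 3, held in 24.7%. A gene that shares one of these orders is therefore common. The part of these other cells in the results was not tested, and their order is pointed out beside some of the results that share it.

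**Figure D1:**
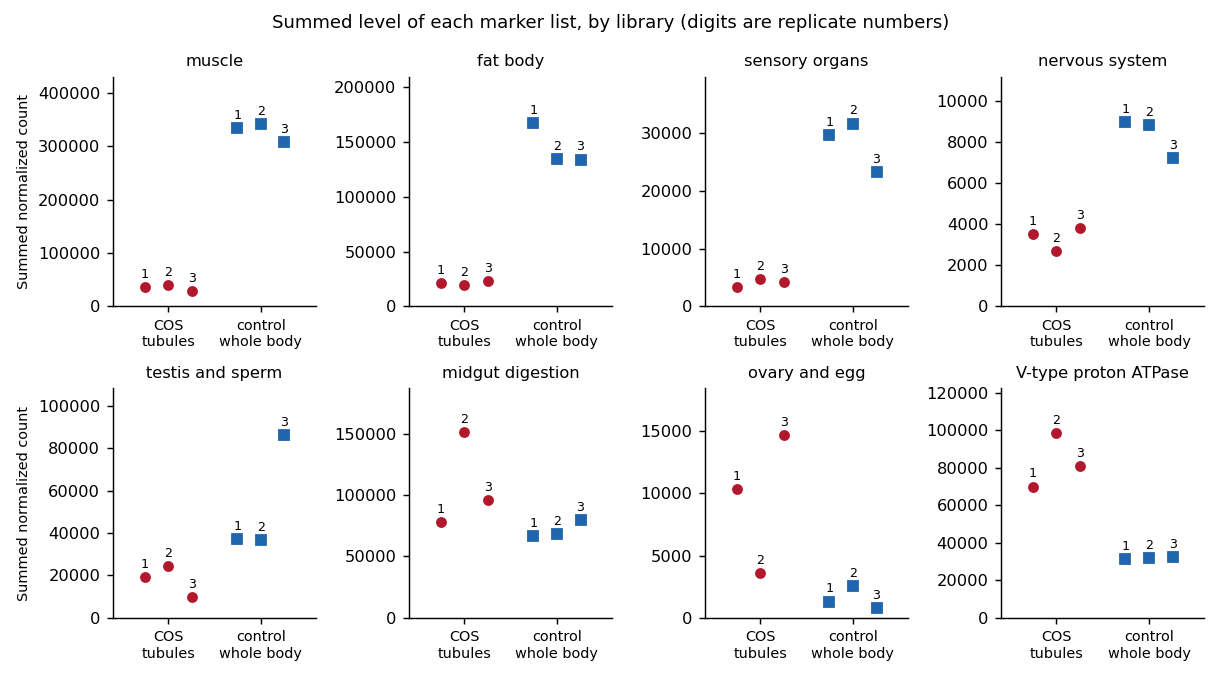
Summed normalized counts of the genes of each marker list, 1 point per library, with COS Malpighian tubules left of control whole body and digits giving the replicate number. The V-ATPase sums, 70013, 98584 and 81052 in COS tubules, lie above 31428, 32124 and 32452 in the control whole body, muscle and fat body lie far below it, and the testis and ovary sums differ among replicates of 1 group.

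Over all genes, 1256 of 5346 tested rose in COS tubules (23.5%) and 2417 fell (45.2%), together 3673 (68.7%), and the median log2 fold change was -0.61. This split depends on the scaling. With TMM factors computed on the listed genes, 1748 rose and 1621 fell and the median was -0.12, since other scalings raise each log2 fold change by 0.26 to 0.52. The authors' size factors were kept because TMM factors rest on the listed genes, which were chosen for change. With the authors' factors, reads outside the listed genes stood at 6469719 to 6753939 per unit of size factor in COS tubules. In the control whole body they stood at 5974205 to 6218182. Genes outside the table were not seen and their changes are not known, so this level cannot decide between scalings. The 1256 rises were called under each of 5 scalings, and 1490 of the falls were. The levels of the COS tubules and the control whole body did not overlap in 1319 genes that were higher (24.7%) and 2766 that were lower (51.7%), together 4085 (76.4%).

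**Figure D2:**
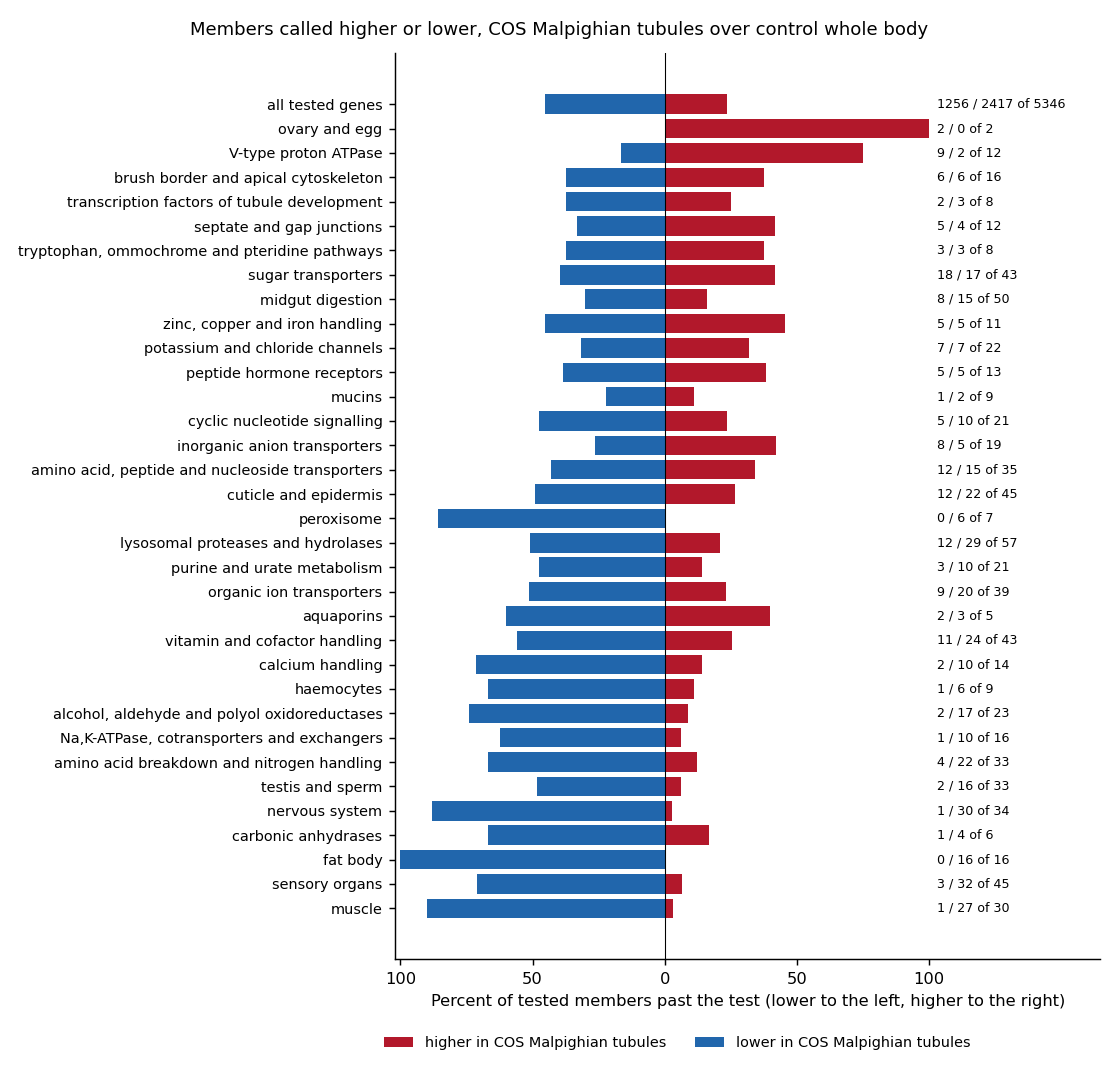
Percent of the tested members of each gene list that passed the test, lower in COS Malpighian tubules to the left and higher to the right, with all 5346 tested genes (23.5% higher, 45.2% lower) at the top. The V-ATPase list, with 9 of 12 higher, extends farthest to the right among the tubule lists, and the fat body list lies wholly to the left.

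The proton pump that drives secretion was higher in COS tubules in most of its measured subunits. Of the 13 V-type ATPase genes listed by the authors, 12 were tested. Of these 9 rose (75%), 2 fell (16.7%) and 1 did not pass, against 23.5% higher and 45.2% lower over all genes. The median log2 fold change was 1.39. The number that rose was 9 under each of 19 other settings. Atp6v0b, a proteolipid of the membrane ring that turns as protons pass, had 3161, 4477 and 3496 normalized counts in COS tubules, against 913, 853 and 942 in the control whole body. It rose by 2.04 ± 0.18 on the log2 scale (adjusted p = 1.64e-05), the largest rise of the list. The groups were far apart and tubule replicate 2 was the highest, as it was for each of the 9 subunits that rose. The V-ATPase sum had the order of the midgut sum among tubule libraries, and the part of midgut cells in it was not tested. The 16 kDa proteolipid (LOC656327), the main ring subunit, had 16407, 22922 and 17783 in COS tubules, against 6104, 6400 and 6463 in the control whole body (1.59 ± 0.16, adjusted p = 3.93e-05). Per kilobase of coding length it was the most abundant subunit of the list, with 39910 normalized counts in COS tubules.

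The other 7 subunits that rose were chosen for mention after their values were seen. Catalytic subunit A (LOC663322), which splits ATP, had 12599, 17167 and 14583 in COS tubules and 5325, 5480 and 5424 in the control whole body, a rise of 1.45 ± 0.17. Subunit B (LOC656208), its partner in the ATP-splitting head, rose by 1.42 ± 0.17. Subunits a (LOC656997), E (LOC659201), e 2 (LOC660587), C (LOC661302) and d (LOC663777) rose by 1.26 to 1.56. Head, stalk and membrane ring were thus represented among the rises, at changes that lay close together.

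The remaining subunits did not follow. Subunit F (LOC663894), of the central stalk, had 1306, 2237 and 1733 in COS tubules against 1966, 1986 and 1678 in the control whole body, and the groups overlapped (-0.09 ± 0.21, adjusted p = 0.693). Subunit G (LOC658882), of the outer stalk, had 91.2, 139 and 51.6 in COS tubules, against 364, 351 and 393 in the control whole body, and fell by 1.98 ± 0.32 (adjusted p = 0.000523). Subunit D (LOC661586), of the central stalk, had 207, 279 and 104 in COS tubules and 489, 560 and 980 in the control whole body (-1.78 ± 0.65, adjusted p = 0.0341, and 0.11 with TMM). Subunits G and D were both lowest in tubule replicate 3 and highest in control replicate 3, as was the testis and sperm sum. Only 1 of these falls passed with TMM, and 1 also without tubule replicate 1, tubule replicate 3, control replicate 2 or control replicate 3. F and D were chosen after their values were seen.

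**Figure D3:**
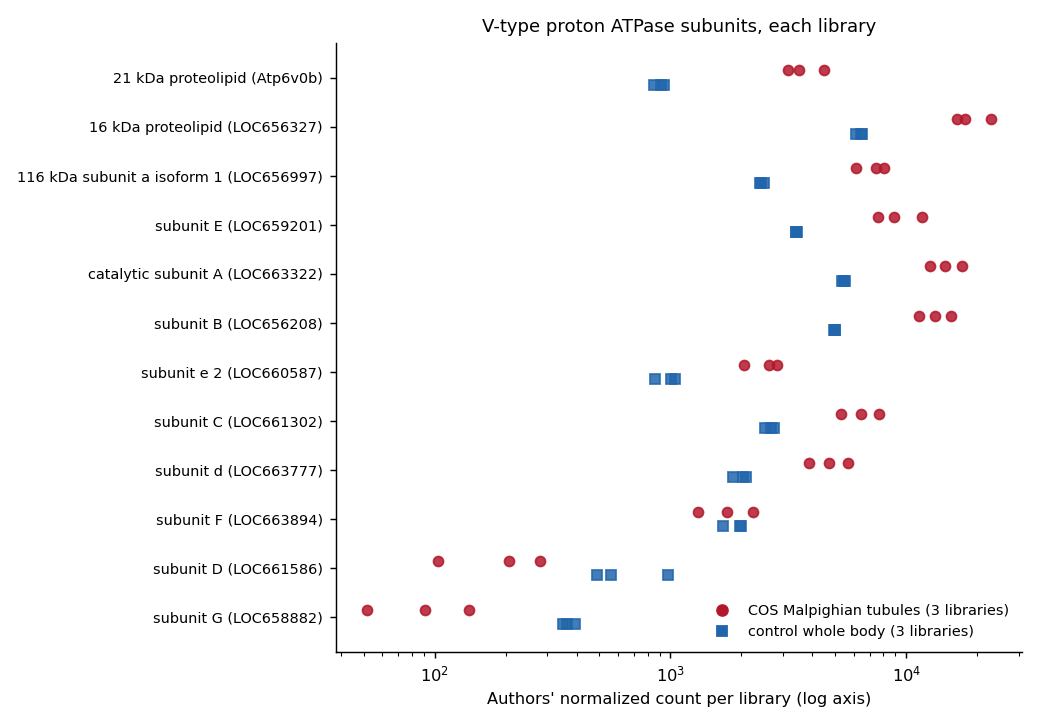
Normalized counts (log axis) of the 12 tested V-type proton ATPase subunits, 1 point per library. In 9 subunits, among them Atp6v0b at 3161, 4477 and 3496 in COS Malpighian tubules and 913, 853 and 942 in control whole body, all 3 tubule libraries lie above all 3 control libraries; F overlaps, and D and G lie lower.

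The list of sodium transport genes, taken by name, behaved differently from the proton pump. The list of Na,K-ATPase subunits, cotransporters and exchangers had 16 members, several of them annotated as sodium/hydrogen exchanger 10 or 10-like. Of these 1 rose (6.25%) and 10 fell (62.5%), against 23.5% and 45.2% over all genes. With TMM 2 rose and 5 fell. The median was -1.48 with the authors' size factors. Without tubule replicate 1, tubule replicate 3 or control replicate 3, 6 fell. In the same settings the falls of the testis and sperm list went from 16 to 5, 5 and 4. The part of the exchanger 10 genes in the falls of the sodium list was not tested. The gene of the sodium list that rose was the sodium/hydrogen exchanger annotated as mitochondrial 9B2 (LOC663852), a member of the family of proton-coupled cation exchangers. It had 1460, 1259 and 1367 in COS tubules, against 496, 532 and 372 in the control whole body (1.54 ± 0.23, adjusted p = 0.000331), with no overlap. The Na,K-ATPase alpha subunit (LOC663833), the basal pump that exports sodium, had 5182, 5160 and 5017 in COS tubules and 10108, 9619 and 8177 in the control whole body. That was a fall of 0.86 ± 0.19 on the log2 scale (adjusted p = 0.0037), which did not pass with TMM (-0.37, adjusted p = 0.0834). Subunit beta-1 (LOC662497), its partner, had 2275, 2489 and 2276 in COS tubules and 1954, 2133 and 1788 in the control whole body (0.26 ± 0.14, adjusted p = 0.121, and 0.75, adjusted p = 0.000597 with TMM). The beta-2 subunit gene LOC103312937 had 40.4, 35.9 and 47.6 in COS tubules against 402, 353 and 307 in the control whole body, the largest fall of the list (-3.09 ± 0.21). The alpha subunit was chosen after its values were seen.

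Potassium reaches the tubule lumen through channels on the blood side, and 5 of the 7 inward rectifiers in the table rose. Of 22 potassium and chloride channel genes 7 rose (31.8%) and 7 fell (31.8%), against 23.5% and 45.2% over all genes. With TMM 7 rose and 4 fell. The median was -0.22, or 0.27 with TMM. Without control replicate 3 and fat body replicate 1, the fat body library that stood apart, 4 rose. The channel annotated as G protein-activated inward rectifier 4 (LOC659210) had 52.6, 84.5 and 56.3 normalized counts in COS tubules, against 7.94, 6.60 and 2.001 in the control whole body (3.54 ± 0.48, adjusted p = 0.00019). Inward rectifier 2 (LOC100142140) had 282, 448 and 324 in COS tubules, against 68.1, 58.3 and 62.0 in the control whole body (2.48 ± 0.24, adjusted p = 2.92e-05). Neither channel overlapped between groups. A further 3 inward rectifiers, chosen after their values were seen, rose as well: LOC663082 by 2.43 ± 0.30, LOC654910 by 1.91 ± 0.25 and LOC659051 by 1.27 ± 0.38. Of the other inward rectifiers, LOC663026 (-0.29 ± 0.17, adjusted p = 0.149) and LOC663056 (0.19 ± 0.36, adjusted p = 0.65), likewise chosen after their values were seen, did not pass. LOC654910 had the most reads of those that rose, at 838, 1151 and 643 in COS tubules and 242, 238 and 223 in the control whole body. Bestrophin-3 (LOC659577), of a family of anion channels, rose by 1.004 ± 0.318 (adjusted p = 0.0197), at 616, 1133 and 493 in COS tubules, against 411, 348 and 359 in the control whole body. Without tubule replicate 2 it did not pass (0.57, adjusted p = 0.061), nor without control replicate 2 (0.0595) or control replicate 3 (0.0558). Two-pore channels of the TWiK type were among the falls: LOC100142617 fell by 3.10 ± 0.23, with 30, 44.9 and 30.1 in COS tubules against 315, 331 and 254 in the control whole body.

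Water channels split into a pair that rose (40%) and 3 that fell (60%), against 23.5% and 45.2% over all genes. AQPAe.a (LOC103314963) had 1439, 2028 and 1704 in COS tubules, against 524, 525 and 468 in the control whole body (1.77 ± 0.18, adjusted p = 3.35e-05). An AQPcic gene (LOC661619) had 1161, 1992 and 1769 in COS tubules and 684, 669 and 690.4 in the control whole body (1.27 ± 0.25, adjusted p = 0.00192). All tubule libraries lay above all controls for both. A further AQPcic gene (LOC659519) had 125, 143 and 35.7 in COS tubules and 248, 285 and 458 in the control whole body, lowest in tubule replicate 3 and highest in control replicate 3, as was the testis sum (-1.71 ± 0.69, adjusted p = 0.0495). Its adjusted p was 0.148 with TMM, 0.126 without tubule replicate 3 and 0.141 without control replicate 3. Of the 3 falls 1 passed with TMM, and 1 when any 1 tubule library, control replicate 1, control replicate 3 or fat body replicate 3 was left out. AQPAe.a had the order of the midgut sum among tubule libraries, and the part of midgut cells in it was not tested.

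The receptors that set the secretion rate went both ways. Of 13 peptide hormone receptors 5 rose (38.5%) and 5 fell (38.5%), against 23.5% and 45.2% over all genes. Without tubule replicate 2, control replicate 1 or control replicate 3, 3 rose. The median was -0.26, or 0.24 with TMM. CAPAr, the receptor of capa peptides, which act on insect tubules through calcium and nitric oxide, had 862.5, 1160 and 776 in COS tubules, against 96.4, 108 and 71.0 in the control whole body. It rose by 3.35 ± 0.25 (adjusted p = 7.55e-06), and the lowest tubule library lay far above the highest control. A diuretic hormone receptor-like gene (LOC659812), whose class raises cyclic AMP in other insects, had 3603, 4377 and 3506 in COS tubules and 1209, 1134 and 1049 in the control whole body (1.76 ± 0.19, adjusted p = 5.71e-05). Related receptors, chosen after their values were seen, showed smaller rises. The diuretic hormone receptor LOC664316 had 510.5, 665 and 448 in COS tubules and 312, 318 and 322 in the control whole body (0.77 ± 0.21, adjusted p = 0.0102). Corticotropin-releasing factor receptor 2 (LOC657245) rose by 1.050 ± 0.364 (adjusted p = 0.0287), with 117, 324 and 212 in COS tubules against 117, 111 and 87.1 in the control whole body. Tubule replicate 1 stood level with the highest control there, and the order among tubule libraries was that of the midgut sum.

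Receptors with other targets were lower. The adipokinetic hormone receptor (Akhr), known for mobilising fat body stores, had 278, 328 and 428 in COS tubules, against 1011, 973 and 699 in the control whole body (-1.38 ± 0.21, adjusted p = 0.000437). The gene annotated as a lutropin-choriogonadotropic hormone receptor, LOC662553, had the largest fall of the list (-2.25 ± 0.37), with 17.7, 35.9 and 14.3 in COS tubules and 137, 90.2 and 94.1 in the control whole body. Akhr was chosen after its values were seen.

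Downstream of the receptors, 5 of 21 cyclic nucleotide signalling genes rose (23.8%) and 10 fell (47.6%), close to the 23.5% and 45.2% over all genes (8 and 9 with TMM). The median was -0.49, or 0.00 with TMM. Adenylate cyclase type 8 (LOC655273), which makes cyclic AMP, had 1396, 1474 and 1050 in COS tubules and 296, 267 and 237 in the control whole body (2.29 ± 0.22, adjusted p = 2.55e-05). A cGMP-dependent protein kinase (LOC657149) had 1139, 1180 and 1075 in COS tubules and 256, 283 and 278 in the control whole body (2.05 ± 0.17, adjusted p = 1.43e-05). The other 3 risers were also cGMP-dependent kinases: LOC657232 rose by 2.04 ± 0.25, LOC103313192 by 1.86 ± 0.38 and LOC663123 by 0.70 ± 0.22. Those 3 were picked once their values were known, and reads may be shared among genes of such close names. The largest fall of the list was that of the gene annotated as head-specific guanylate cyclase (LOC659086). It had 5.51, 8.99 and 8.73 in COS tubules against 111, 121 and 71.0 in the control whole body (-3.70 ± 0.36). The cyclic AMP-dependent kinase inhibitor LOC103313002 had 708, 520.4 and 873 in COS tubules and 437, 497 and 592 in the control whole body, with overlap (0.46 ± 0.24, adjusted p = 0.107, and 0.95, adjusted p = 0.0109 with TMM).

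**Figure D4:**
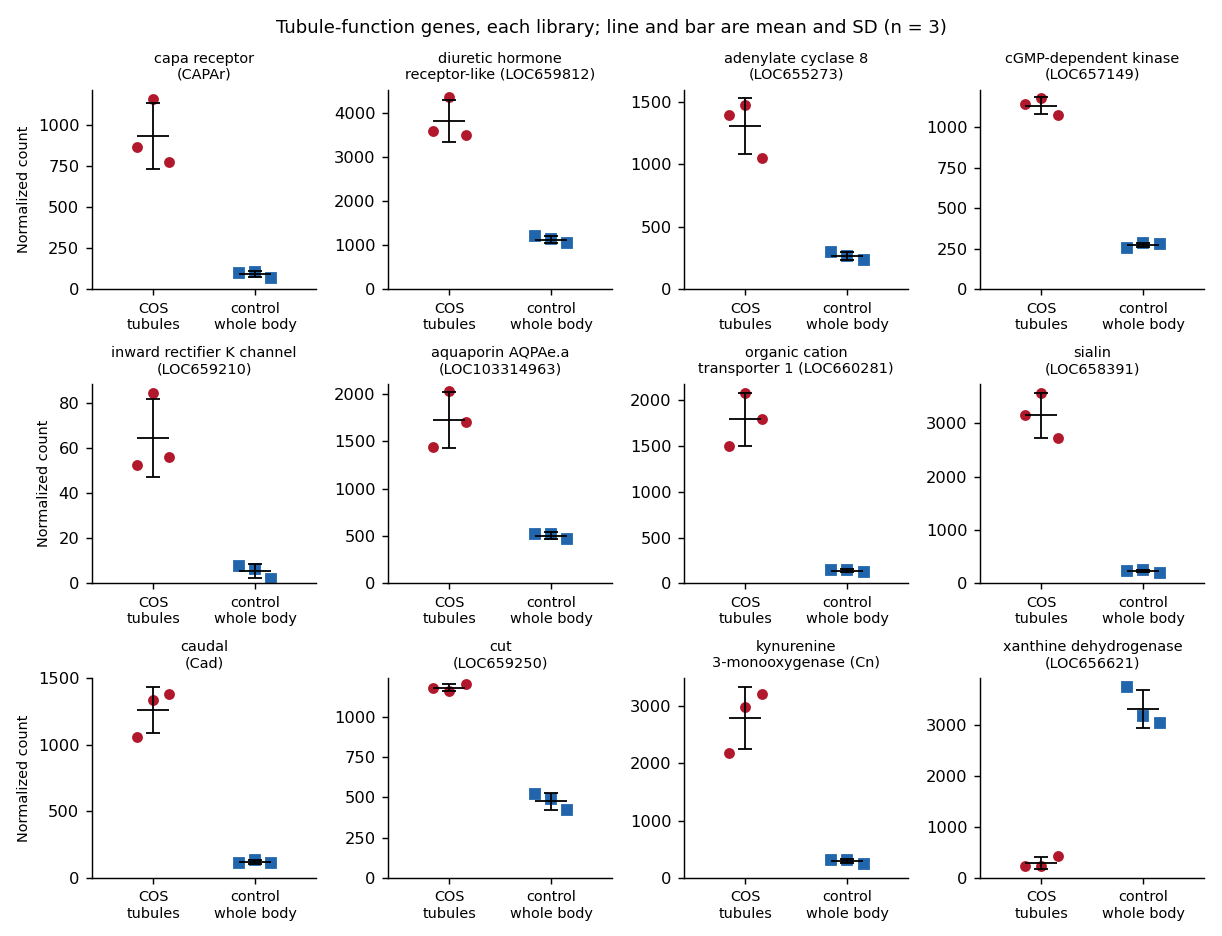
Normalized counts of 12 genes of tubule functions, 1 point per library, with the mean and SD of 3 libraries, COS Malpighian tubules left of control whole body. In 11 genes, such as CAPAr (862.5, 1160 and 776 in COS tubules, 96.4, 108 and 71.0 in control whole body), every tubule library lies above every control library; xanthine dehydrogenase is the reverse.

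Carriers of organic acids and bases supplied several large rises. Of 39 tested organic ion transporters 9 rose (23.1%) and 20 fell (51.3%), near the 23.5% and 45.2% over all genes (9 and 12 with TMM), with a median of -1.13. Monocarboxylate transporter 1 (LOC100141623), of a family that carries lactate and similar acids with protons, had 1304, 1304 and 1067 in COS tubules, against 54.5, 67.1 and 57.03 in the control whole body (4.36 ± 0.32, adjusted p = 7.64e-06). Organic cation transporter 1 (LOC660281), of a family that moves charged amines and drugs, had 1502, 2078 and 1798 in COS tubules against 150, 146 and 127 in the control whole body (3.67 ± 0.40, adjusted p = 5.24e-05). The sodium-coupled monocarboxylate transporter 1 gene LOC658032 was the most abundant of the list per kilobase of coding length, with 13679, 14166 and 10251 normalized counts in COS tubules, against 1709, 1451 and 1530 in the control whole body (3.02 ± 0.20, adjusted p = 4.84e-06). Each of these carriers separated the groups without overlap. In the opposite direction, the monocarboxylate transporter 4-like gene LOC103312855 had 5.51, 10.8 and 14.3 in COS tubules and 151, 150 and 127 in the control whole body (-3.82 ± 0.31, adjusted p = 1.15e-05). Members of 1 family thus differed in opposite directions by more than their errors.

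Sugar transporters were the largest carrier family in the table, and they divided almost evenly. Of 43 tested members 18 rose (41.9%) and 17 fell, against 23.5% higher over all genes, and the median was 0.02 (0.51 with TMM, which calls 20 and 13). Across 19 other settings the number that rose ran from 17 to 20. Most are annotated as Tret1, the facilitated carrier of trehalose, the blood sugar of insects. Tret1 LOC660844 had 73.5, 98.0 and 76.2 in COS tubules, against 3.40, 2.20 and 4.002 in the control whole body (4.63 ± 0.52, adjusted p = 6.37e-05). Tret1 LOC655214 had 585, 1351 and 1208 in COS tubules and 37.4, 42.9 and 63.0 in the control whole body (4.45 ± 0.40, adjusted p = 2.06e-05). Tubule replicate 1 was the lowest of the tubule libraries there and still lay far above every control.

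The most abundant member per kilobase of coding length was Tret1 LOC659896, with 3243, 4428 and 3887 in COS tubules and 862, 911 and 692 in the control whole body (2.23 ± 0.29, adjusted p = 0.000143). In the other direction, Tret1 LOC663195, chosen after its values were seen, had 12.2, 25.2 and 11.1 in COS tubules against 299.5, 274 and 206 in the control whole body (-4.01 ± 0.35). The glucose transporter 8-like gene LOC103314163 was listed at 0 in all tubule libraries and at 4.54, 7.70 and 12.01 in the control whole body. Set against a floor of 3 counts over the group, it was at least 10.8-fold lower in COS tubules. The split of reads among these near copies is uncertain, because the handling of shared reads is not stated.

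**Figure D5:**
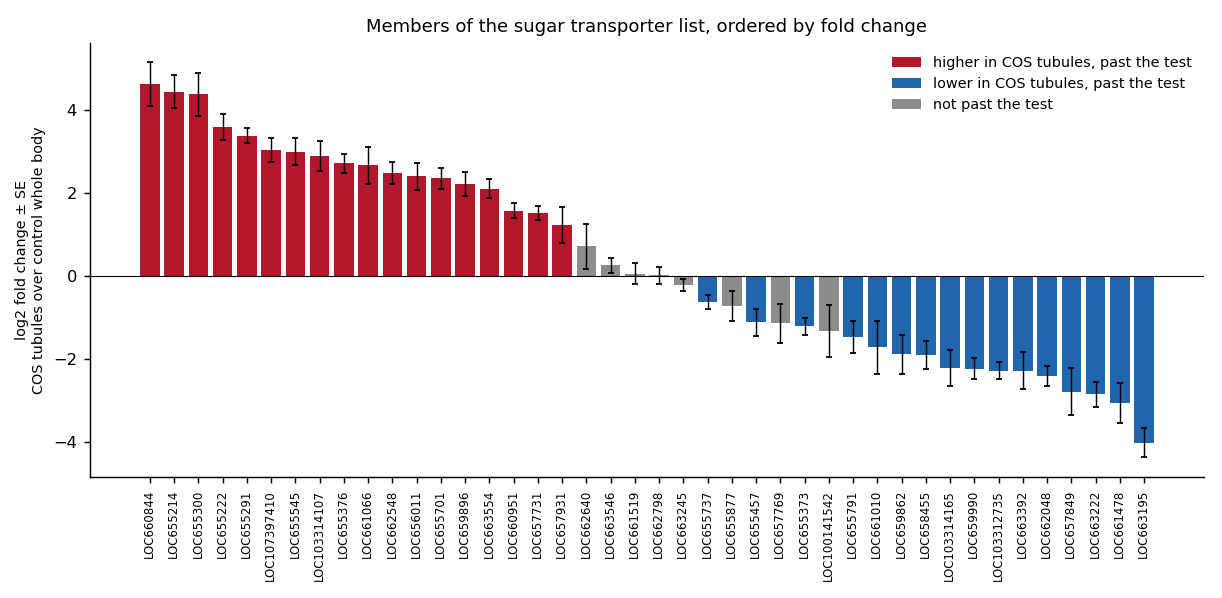
Log2 fold change of COS Malpighian tubules over control whole body, with SE, for the tested sugar transporters in order of fold change, leaving out LOC103314163, which had no tubule reads. Bars run from -4.01 (LOC663195) to 4.63 (LOC660844), with 18 members past the test above 0.

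Amino acid, peptide and nucleoside carriers also went both ways, with a median of -0.65. Of 35 tested, 12 rose (34.3%) and 15 fell (42.9%), against 23.5% and 45.2% over all genes. Proton-coupled amino acid transporter 4 (LOC664380) had 1451, 1962 and 1542 in COS tubules, against 95.3, 109 and 73.0 in the control whole body (4.16 ± 0.29, adjusted p = 6.15e-06). Its relative, proton-coupled amino acid transporter 1 (LOC657092), showed the reverse, with 840, 1341 and 1081 in COS tubules and 20334, 17661 and 15795 in the control whole body (-4.04 ± 0.26, adjusted p = 4.28e-06). These changes are nearly equal in size and opposite in sign within a single family. An equilibrative nucleoside transporter 3-like gene (LOC657594), of a family that moves nucleosides across membranes, had 473, 568 and 420.5 in COS tubules and 60.1, 63.8 and 43.02 in the control whole body (3.13 ± 0.29, adjusted p = 2.36e-05). The excitatory amino acid transporter 3 gene LOC659711, which takes up glutamate, rose by 1.92 ± 0.22, with 2789, 4026 and 3819 in COS tubules and 905, 990.3 and 921.5 in the control whole body. Per kilobase of coding length it was the most abundant of the list in COS tubules. It was chosen after its values were seen.

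Among 19 inorganic anion transporters 8 rose (42.1%) and 5 fell (26.3%), against 23.5% and 45.2% over all genes. The rises were led by genes annotated as sialin, an anion carrier of the phosphate transporter superfamily. Sialin LOC658391 had 3148, 3563 and 2716 in COS tubules, against 242, 254 and 203 in the control whole body (3.75 ± 0.19, adjusted p = 2.02e-06). Sialin LOC660715 had 3028, 3138 and 2324 in COS tubules, against 289, 221 and 225 in the control whole body (3.53 ± 0.27, adjusted p = 8.39e-06). Neither overlapped between the groups. The sulfate and anion carrier family member SLC26 member 10 (LOC659697), chosen after its values were seen, rose by 2.30 ± 0.22. A putative phosphate cotransporter (LOC663278) was the largest fall, with 54.5, 89.0 and 79.3 in COS tubules and 792, 775 and 705 in the control whole body (-3.35 ± 0.33). The list's median was -0.64.

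Metal handling genes went both ways. Of 11 zinc, copper and iron genes 5 rose (45.5%) and 5 fell (45.5%), against 23.5% and 45.2% over all genes. With TMM 5 rose and 2 fell. The median was -0.12, or 0.38 with TMM. Without tubule replicate 1, tubule replicate 3, control replicate 1 or control replicate 3, 3 fell. Zinc carriers made up 4 of the 5 rises: ZIP1 (LOC663579), which imports zinc, had 190.4, 253 and 208 in COS tubules and 80.5, 75.9 and 75.0 in the control whole body (1.49 ± 0.21, adjusted p = 0.000238). The other zinc carriers, chosen after their values were seen, were LOC663791 (1.151 ± 0.189), LOC655654 (0.97 ± 0.22) and LOC659638 (0.63 ± 0.18). ZIP3 (LOC657975), also chosen after its values were seen, fell by 2.19 ± 0.67 (adjusted p = 0.0166, and 0.055 with TMM), at 2.45, 0 and 1.59 in COS tubules and 4.54, 5.502 and 11.01 in the control whole body. In Drosophila, zinc is stored in granules of the tubule cells. The iron carrier transferrin is encoded by more than 1 gene here, and they differed. Transferrin LOC659207 had 3089, 4563 and 2307 in COS tubules, against 1300, 1202 and 1634 in the control whole body (1.27 ± 0.26, adjusted p = 0.0025), and transferrin LOC655734 had 183, 473 and 451.5 in COS tubules, against 2389, 2690 and 2161 in the control whole body (-2.71 ± 0.61, adjusted p = 0.00361). Ferritin heavy chain (LOC655492), the iron store and the most abundant member per kilobase of coding length, had 20611, 29230 and 23978 in COS tubules and 31050, 28152 and 20813 in the control whole body, with overlap (-0.12 ± 0.19, adjusted p = 0.595).

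Calcium genes were mostly lower, with 2 of 14 higher (14.3%) and 10 lower (71.4%), against 23.5% and 45.2% over all genes. With TMM 3 rose and 7 fell, and 1 rose without tubule replicate 2 or any 1 control. The exchanger NCKX4 (LOC657106), which exports calcium for sodium, was the main exception, at 1816, 2300 and 1399 in COS tubules and 535, 505 and 871.5 in the control whole body (1.53 ± 0.27, adjusted p = 0.000999). Regucalcin LOC656188, a calcium-binding protein, had 1207, 1702 and 1348 in COS tubules and 843, 846 and 687 in the control whole body (0.84 ± 0.30, adjusted p = 0.0328), and its adjusted p ran from 0.0583 to 0.0973 when tubule replicate 2 or 3 or any 1 control was left out. Calmodulin-beta (LOC659938) had 31.2, 35.9 and 31.7 in COS tubules against 404, 457 and 452 in the control whole body (-3.73 ± 0.17). Carbonic anhydrases, which supply protons and bicarbonate, gave 1 rise (16.7%) and 4 falls (66.7%) among 6. Carbonic anhydrase 1 (LOC658563) rose, with 654, 608 and 816 in COS tubules and 286, 260 and 198 in the control whole body (1.48 ± 0.20, adjusted p = 0.000183). Beta carbonic anhydrase 1 (LOC659585) fell, with 257, 405 and 223 in COS tubules and 1835, 1961 and 1559 in the control whole body (-2.60 ± 0.24).

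The genes of xanthine dehydrogenase, the enzyme that makes urate for excretion, were lower in the COS tubules than in the whole body. Of 21 purine genes 3 rose (14.3%, against 23.5% over all genes) and 10 fell (47.6%, near the 45.2% over all genes). The median was -1.03. Xanthine dehydrogenase LOC656621 had 227, 229 and 425 in COS tubules, against 3752, 3179 and 3051 in the control whole body (-3.50 ± 0.54, adjusted p = 0.00044). Another xanthine dehydrogenase gene (LOC656456), chosen after its values were seen, had 32.4, 23.4 and 34.9 in COS tubules and 198.5, 195 and 176 in the control whole body (-2.64 ± 0.45). The bifunctional enzyme PURH (LOC656241), of the last steps of purine synthesis, had 2353, 2225 and 3441 in COS tubules and 10277, 10155 and 7045 in the control whole body (-1.78 ± 0.26). Genes of earlier synthesis steps went both ways. Amidophosphoribosyltransferase (LOC663722), the first step, had 958, 639 and 1225 in COS tubules and 296, 427 and 208 in the control whole body (1.6 ± 0.307, adjusted p = 0.00151). Phosphoribosylformylglycinamidine synthase (LOC658176) had 181, 74.6 and 224.5 in COS tubules and 55.6, 52.8 and 28.02 in the control whole body (1.82 ± 0.59, adjusted p = 0.0224), and its adjusted p was 0.0551, 0.0731 and 0.0772 without tubule replicate 1, tubule replicate 3 and control replicate 3. Further copies of both, chosen after their values were seen, did not rise. Amidophosphoribosyltransferase LOC656545 fell, with 407, 546 and 763 in COS tubules and 2751, 2457 and 1994 in the control whole body (-2.07 ± 0.30, adjusted p = 0.000286), and phosphoribosylformylglycinamidine synthase LOC100142601 did not pass (-0.59 ± 0.36, adjusted p = 0.168). The copies that rose were lowest in tubule replicate 2 among the tubule libraries, which is the order of the ovary and egg sum.

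The tryptophan pathway, which leads through kynurenines to the ommochrome pigments, differed in direction between its steps. Of 8 genes 3 rose (37.5%) and 3 fell (37.5%), against 23.5% and 45.2% over all genes. Tryptophan 2,3-dioxygenase (V, the vermilion gene), the first step, had 67.9, 137 and 104 in COS tubules and 636, 717 and 557 in the control whole body (-2.63 ± 0.27, adjusted p = 3.65e-05). Kynurenine 3-monooxygenase (Cn, the cinnabar gene), a later step, had 2188, 2981 and 3219 in COS tubules and 307, 305 and 246 in the control whole body (3.29 ± 0.36, adjusted p = 5.61e-05). The scarlet-like transporter LOC103313043, whose Drosophila relative carries pigment precursors into granules, had 429, 530.2 and 501.5 in COS tubules and 118, 122 and 80.0 in the control whole body (2.19 ± 0.24, adjusted p = 5.24e-05). A further scarlet gene, LOC657125, rose by 1.95 ± 0.23 and was chosen after its values were seen. None of these 4 genes overlapped between groups.

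Vitamin and cofactor genes gave 11 rises (25.6%) and 24 falls (55.8%) among 43, against 23.5% and 45.2% over all genes. With TMM 15 rose and 21 fell. The median was -1.19 with the authors' size factors. Pyridoxal kinase (LOC661714), which activates vitamin B6, had 3052, 4526 and 3780 in COS tubules, against 763, 734 and 661 in the control whole body (2.40 ± 0.19, adjusted p = 9.18e-06). The next step of vitamin B6 handling, the pyridoxine-5'-phosphate oxidase-like gene LOC660386, had 790, 1202 and 864 in COS tubules and 437, 410 and 362 in the control whole body (1.24 ± 0.20, adjusted p = 0.000517). Dihydrofolate reductase (LOC103313507) rose by 1.41 ± 0.17 and thiamine transporter 1 (LOC662772) by 1.39 ± 0.27, and these 3 were chosen after their values were seen. Thiamine transporter 1-like LOC103313067 had 38.6, 24.3 and 42.9 in COS tubules and 17.02, 8.80 and 8.004 in the control whole body (1.65 ± 0.60, adjusted p = 0.035), and its adjusted p ran from 0.078 to 0.111 when tubule replicate 1 or 3 or control replicate 2 or 3 was left out. The largest fall was that of cytosolic 10-formyltetrahydrofolate dehydrogenase (LOC658435), with 98.6, 128 and 105 in COS tubules and 1806, 2426 and 920.5 in the control whole body (-3.96 ± 0.37, adjusted p = 2.41e-05).

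Breakdown of amino acids was lower in most of its measured genes, with 22 of 33 lower (66.7%) against 45.2% over all genes, and 4 higher (18 and 6 with TMM). Tyrosine aminotransferase (LOC659321), which starts tyrosine breakdown, had 34.9, 73.7 and 109 in COS tubules and 2422, 2438 and 1621 in the control whole body (-4.90 ± 0.43, adjusted p = 1.7e-05). The next enzyme of that route, 4-hydroxyphenylpyruvate dioxygenase (LOC662658), had 152, 294 and 434 in COS tubules and 6030, 5522 and 3623 in the control whole body (-4.11 ± 0.40). It was chosen after its values were seen. Histidine ammonia-lyase (LOC664601), which starts histidine breakdown, stood out against the list, with 2109, 2573 and 2144 in COS tubules and 361, 279.5 and 276 in the control whole body (2.90 ± 0.21, adjusted p = 6.56e-06). The fat body sums given above were also lower in COS tubules, and these enzymes were lower there than in COS fat body as well (log2 fold changes of -6.68 for LOC659321 and -6.42 for LOC662658).

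Alcohol, aldehyde and polyol oxidoreductases were also mostly lower. Of 23 genes 2 rose (8.7%) and 17 fell (73.9%), against 23.5% and 45.2% over all genes. With TMM 2 rose and 13 fell. Both rises were aldose reductases, which turn glucose into sorbitol. LOC662670 had 5202, 6717 and 2798 in COS tubules and 1489, 1244 and 1356 in the control whole body (1.85 ± 0.34, adjusted p = 0.00113), and LOC657943 had 2706, 3612 and 3082 in COS tubules and 1678, 1299 and 1458 in the control whole body (1.08 ± 0.17, adjusted p = 0.000483). The largest fall was L-xylulose reductase LOC660733, with 9.79, 20.7 and 16.7 in COS tubules and 209, 172 and 89.1 in the control whole body (-3.32 ± 0.40). Of 7 peroxisome genes none rose and 6 fell by edgeR (3 with TMM, which called 1 higher), and the polyamine oxidase LOC662554 fell most (-2.66 ± 0.27), with 304, 531 and 478 in COS tubules against 3206, 2955 and 2156 in the control whole body.

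Genes of the brush border and its cytoskeleton gave 6 rises (37.5%) and 6 falls (37.5%) among 16, against 23.5% and 45.2% over all genes. With TMM 3 fell. The median was 0.44 with the authors' size factors. Alkaline phosphatases, enzymes anchored in the apical membrane, made up 3 of the rises. Alkaline phosphatase 4 (LOC663929) had 198, 236 and 170 in COS tubules, against 28.4, 31.9 and 3.002 in the control whole body (3.26 ± 0.59, adjusted p = 0.00107). The tissue-nonspecific type (LOC657368) had 835, 1080 and 897 in COS tubules and 176, 246 and 194 in the control whole body (2.19 ± 0.20, adjusted p = 2.34e-05). The membrane-bound form (LOC660129), the most abundant of the list per kilobase of coding length, had 6652, 12188 and 8010 in COS tubules and 4165, 4333 and 4217 in the control whole body (1.08 ± 0.38, adjusted p = 0.0311). Its adjusted p was 0.11 without tubule replicate 2, where the midgut sum was also highest, and 0.05 without tubule replicate 3. It was 0.0748, 0.0691 and 0.0756 without control replicates 1, 2 and 3. The other risers were myosins Va (LOC663516) and IXa (LOC657914) and cadherin-23 (LOC660465), chosen after their values were seen. They rose by 1.30, 1.48 and 1.22 in that order, and among the tubule libraries each was lowest in replicate 2, as was the ovary sum. Myosin XV (LOC658144) had the largest fall (-2.75 ± 0.32).

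Junction genes gave 5 rises (41.7%) and 4 falls (33.3%) among 12, against 23.5% and 45.2% over all genes. Without tubule replicate 2 or control replicate 2 there were 3 rises. Mesh (LOC658199), a protein of the smooth septate junctions that seal gut and tubule epithelia in insects, was the most abundant per kilobase of coding length, with 22522, 25600 and 12714 in COS tubules and 9408, 8774 and 11726 in the control whole body (1.02 ± 0.30, adjusted p = 0.0144). Its adjusted p was 0.0503 without tubule replicate 2 and 0.0507 without control replicate 2. Innexins build gap junctions, and 4 of the 5 rises were innexins. The inx7-like gene LOC657000 had 245, 318 and 213 in COS tubules and 86.2, 60.5 and 79.0 in the control whole body (1.78 ± 0.33, adjusted p = 0.0012). Innexin inx2 (LOC661739) had 850.3, 469 and 1220 in COS tubules and 238, 283 and 217 in the control whole body (1.78 ± 0.46, adjusted p = 0.00741), with the replicate order of the ovary sum in both groups. Contactin (LOC655681), of the pleated septate junctions of other epithelia, had 686, 525 and 802 in COS tubules and 2055, 1982 and 1823 in the control whole body (-1.54 ± 0.22).

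Of 8 transcription factor genes linked to tubule development 2 rose (25%) and 3 fell (37.5%), against 23.5% and 45.2% over all genes. With TMM 3 rose and 1 fell, and 1 fell without control replicate 3. Caudal (Cad), a homeobox factor of posterior and hindgut development, had 1060, 1337 and 1384 in COS tubules, against 108, 133 and 107 in the control whole body (3.44 ± 0.40, adjusted p = 8e-05). Cut (LOC659250), a homeobox factor required for tubule formation in Drosophila, had 1183, 1160 and 1203 in COS tubules and 521, 487 and 419 in the control whole body (1.31 ± 0.21, adjusted p = 0.000517). Both separated the groups, and the tubule libraries agree closely for cut. Against the COS fat body caudal was higher by 5.09, while cut did not differ past the test (-0.05 ± 0.21, adjusted p = 0.818), a value whose sign depends on the scaling. The GATA-binding factor LOC661820 had 22.04, 12.6 and 13.5 in COS tubules and 80.5, 70.4 and 45.0 in the control whole body (-2.001 ± 0.380).

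The largest rise in the table was that of a digestive or lysosomal protease. Cathepsin L1 (LOC660551), a cysteine protease, had 9211, 17873 and 12140 in COS tubules, against 3.40, 11 and 56.0 in the control whole body (9.09 ± 0.97, adjusted p = 4.78e-05). Zingipain-2 (LOC658343), of the same family, had 12263, 21702 and 15738 in COS tubules and 46.5, 64.9 and 121 in the control whole body (7.73 ± 0.48, adjusted p = 3.84e-06). Tubule replicate 2 was highest for both, as for the midgut sum, and every tubule library lay far above every control. Of their list of 57 lysosomal proteases and hydrolases, 12 rose (21.1%) and 29 fell (50.9%), near the 23.5% and 45.2% over all genes, with a median of -1.03. Its most abundant member per kilobase of coding length, the cathepsin L precursor LOC659502, had 24710, 42109 and 23215 in COS tubules and 34308, 25997 and 19271 in the control whole body, with overlap (0.18 ± 0.35, adjusted p = 0.649). Arylsulfatase B (LOC664109), which removes sulfate from glycans, fell most, with 43.5, 33.3 and 64.3 in COS tubules and 744, 561 and 499 in the control whole body (-3.67 ± 0.29). Reads of cathepsin L genes may be shared among copies.

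Other genes among the 12 largest rises, beyond the carriers above, were of varied function. Mucin-21 (LOC107397713), a secreted or surface glycoprotein, had 4311, 4957 and 4000 in COS tubules, against 70.3, 82.5 and 59.0 in the control whole body (5.97 ± 0.29, adjusted p = 1.78e-06). It was the only one of 9 mucins that rose, and 2 fell (2 and 2 with TMM, and 2 rose without tubule replicate 2), led by mucin-2 (LOC656932, -2.73 ± 0.28). Chitinase 4 (Cht4), which cuts chitin, had 19877, 25736 and 21839 in COS tubules and 644, 628 and 913.5 in the control whole body (4.95 ± 0.42, adjusted p = 1.46e-05). 4-nitrophenylphosphatase (LOC662004) had 6599, 8119 and 5506 in COS tubules and 281, 295 and 297 in the control whole body (4.53 ± 0.33). These genes did not overlap between groups, and their tubule libraries lay within a factor of 1.5 of each other.

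Lipid-linked and detoxification enzymes completed the rises. Fatty acyl-CoA reductase 1 (LOC656109), which makes fatty alcohols, rose by 4.64 ± 0.23 and reached 6377, 5677 and 3816 in COS tubules, against 197, 224.5 and 216 in the control whole body. A 4-coumarate-CoA ligase 1 gene (LOC657935), of the family of acyl-CoA-forming enzymes, rose by 4.34 ± 0.25, and the kinase annotated as clkA (LOC103314022) by 4.79 ± 0.38. The nose resistant to fluoxetine 6-like gene (LOC658115), named for a worm gene of the same family that acts in lipid transport, had 2381, 3182 and 2349 in COS tubules and 183, 129 and 116 in the control whole body (4.21 ± 0.25). Cytochrome P450 6a14 (LOC658760), of a family of oxygenases that act on foreign compounds, had 8025, 10179 and 7798 in COS tubules and 237, 188 and 227 in the control whole body (5.32 ± 0.31, adjusted p = 2.89e-06).

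Ranked by TPM, the most abundant described transcripts of the COS tubules were mitochondrial. Cytochrome c oxidase subunit I (KEF75_p12), the core of respiratory complex IV, had 348974, 505654 and 353870 in COS tubules, against 1045503, 1062956 and 773776 in the control whole body (-1.25 ± 0.21, adjusted p = 0.000758). Of 11 listed transcripts encoded in the mitochondrion, 10 were lower in COS tubules (7 with TMM), where 45.2% of all genes tested were. Their summed level was 1072912, 1583736 and 1017504 in COS tubules and 2789179, 3097756 and 2258819 in the control whole body. Subunit II (KEF75_p11) changed least among those that passed, with overlap between the groups (-0.56 ± 0.21, adjusted p = 0.0398, and 0.74 with TMM). Muscle genes were lower in the same libraries, and the part of muscle in the mitochondrial level was not tested.

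The most abundant nuclear transcript with a descriptive name carries the annotation circumsporozoite protein (LOC655293), a name taken from repeats and without a known role in beetles. It had 78555, 64173 and 34140 in COS tubules and 23924, 24908 and 28965 in the control whole body, without overlap. It did not pass (1.18 ± 0.60, adjusted p = 0.0999, and 0.0438 with TMM). With RLE factors (0.0182) and with the 6 libraries alone (0.0101) it passed. It also passed without fat body replicate 1, left out alone (0.00641) or together with control replicate 3 (0.0152). In the other settings it did not pass. Genes without a descriptive name made up 1276 of those tested. Of these 264 rose (20.7%) and 583 fell (45.7%), near the 23.5% and 45.2% over all genes. A pair of them, abundant in the COS tubules, were chosen after their values were seen. LOC661370 had a mean of 128865 in COS tubules against 8622 in the control whole body (3.90 ± 0.26), and per kilobase of coding length it had rank 4 in the tubules. LOC661087 rose by 6.64 ± 0.28, with means of 34420 in COS tubules and 344 in the control whole body. What these proteins do is not given in the sources used here.

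Muscle and sensory transcripts were among the largest falls. Of 30 tested muscle genes 27 fell (90%) and 1 rose (3.33%), against 45.2% and 23.5% over all genes. None rose without control replicate 2, and 2 did without tubule replicate 2. The median of the muscle list was -3.28. Troponin T (LOC663893), of the thin filament, had 2467, 2642 and 1805 in COS tubules against 29634, 27579 and 25956 in the control whole body (-3.59 ± 0.19). Flightin (LOC657758), a protein of insect flight muscle, had 209, 114 and 35.7 in COS tubules against 8704, 8107 and 6382 in the control whole body (-6.01 ± 0.60). Troponin C LOC659336 fell by 6.06 ± 0.93 and LOC659195 by 5.15 ± 0.43, and myosin light chain alkali (LOC663846) by 5.91 ± 0.70. Flightin, both troponin C genes and the light chain were lowest in tubule replicate 3.

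Sensory, nervous and fat body genes followed. Of 45 tested sensory genes 32 fell (71.1%) and 3 rose (6.67%). Of 34 nervous system genes 30 fell (88.2%) and 1 rose (2.94%). All 16 fat body genes fell (15 with TMM and at least 15 across 19 settings). Over all genes 45.2% fell and 23.5% rose. None of the sensory genes rose without control replicate 2 or 3, and 1 did without tubule replicate 1 or 3. None of the nervous system genes rose without tubule replicate 1, tubule replicate 3, control replicate 1 or control replicate 3. Chemosensory protein Csp13, a small carrier of hydrophobic ligands, had 3.67, 8.99 and 19.8 in COS tubules against 2859, 3569 and 1907 in the control whole body (-8.02 ± 1.01, adjusted p = 0.000126). The ejaculatory bulb-specific protein 3 gene LOC103313838, of the same small protein family, had 10.4, 9.89 and 7.14 in COS tubules against 2135, 1911 and 2875 in the control whole body (-7.95 ± 0.39). The most abundant fat body gene of the controls, apolipophorins-like LOC107398075, which carries lipid in the blood, had 2376, 3315 and 4046 in COS tubules against 21762, 17548 and 14493 in the control whole body (-2.47 ± 0.28). The nicotinic receptor nAChRa10 fell by 1.88 ± 0.20 and Csp11 by 4.26 ± 0.37. The remaining genes among the 12 largest falls belonged to none of these lists. They were microtubule-associated protein 1B (LOC660329), glycine-rich protein blt801 (LOC100141891), phospholipase A1-like LOC656826, 15-hydroxyprostaglandin dehydrogenase LOC103314500, fibrous sheath-binding LOC107397718 and nuclear factor 1 LOC660261, at log2 fold changes of -6.11 to -5.14. Microtubule-associated protein 1B, which binds microtubules in nerve cells of mammals, had 102, 62.0 and 36.5 in COS tubules against 5058, 5422 and 3438 in the control whole body.

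Cuticle, haemocyte and gut genes were mixed. Of 45 cuticle and epidermis genes 12 rose (26.7%) and 22 fell (48.9%), near the 23.5% and 45.2% over all genes. Without control replicate 3 and the fat body library that stood apart, 7 rose. Endocuticle glycoprotein SgAbd-4 (LOC662608) had 361, 444 and 1117 in COS tubules against 7725, 6786 and 4882 in the control whole body (-3.33 ± 0.42). Of 9 haemocyte genes 1 rose (11.1%) and 6 fell (66.7%), and 2 rose with TMM. The scavenger receptor croquemort-like LOC657031 had 1385, 1895 and 605 in COS tubules against 3524, 3539 and 6804 in the control whole body (-1.84 ± 0.67, adjusted p = 0.0345), a call that did not hold with TMM (adjusted p = 0.107). It was lowest in tubule replicate 3 and highest in control replicate 3, as was the testis sum. Of 50 midgut digestion genes 8 rose (16%) and 15 fell, against 23.5% higher over all genes, and the median was -0.01, or 0.48 with TMM. The rises were 14 with TMM, 16 with RLE and 13 without tubule replicate 1. Chymotrypsin-1 (LOC103313304), a digestive protease, had 26.3, 2465 and 84.9 in COS tubules and 4637, 5966 and 1445 in the control whole body (-2.23 ± 1.39, adjusted p = 0.173). Tubule replicate 2 alone held nearly all its tubule reads, and without that library it fell by 6.18 on the log2 scale (adjusted p = 0.00198).

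Germ-line genes were the least even between replicates. Of 33 testis and sperm genes 16 fell (48.5%), near the 45.2% over all genes, and 2 rose (6.06%). With TMM 3 fell, and the count of falls ran from 3 to 26 across settings. It was 5 without tubule replicate 1 or 3, 4 without control replicate 3, and 26, 25 and 10 without fat body replicates 1, 2 and 3. Outer dense fiber protein 3 (LOC663790), of the sperm tail, had 1546, 1979 and 706 in COS tubules and 3487, 3590 and 5940 in the control whole body (-1.62 ± 0.68, adjusted p = 0.056). It passed with DESeq2 (adjusted p = 0.0194), limma-voom (0.036) and the 6 libraries alone (0.00765). Without fat body replicate 1 (0.0165) or 2 (0.0145) it passed as well. In the other settings, TMM among them (0.168), it did not pass. Both ovary and egg genes rose: bicaudal C (LOC663844), a regulator of translation in the egg, had 3200, 1060 and 4485 in COS tubules against 303, 692 and 213 in the control whole body (2.86 ± 0.87, adjusted p = 0.0167). It did not pass without tubule replicate 3 (adjusted p = 0.0519), control replicate 1 (0.0565) or control replicate 3 (0.0595). The vitellogenin receptor (LOC657346), which takes up yolk protein in the ovary and was chosen after its values were seen, had 7153, 2519 and 10172 in COS tubules and 1000, 1832 and 545 in the control whole body. Of this list 1 gene rose without tubule replicate 3 or control replicate 1, and none without control replicate 3. Levels of both thus exceeded the whole body in every tubule library and were lowest in tubule replicate 2.

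Set beside the COS fat body, 10 of 12 proton pump subunits were higher in the COS tubules and 1 was lower, against 36.4% higher and 46.9% lower over all genes. CAPAr was higher in the COS tubules by 5.53 and organic cation transporter 1 (LOC660281) by 6.35 on the log2 scale. Of the midgut genes 29 were higher in COS tubules than in COS fat body and 15 lower. The summed level of the muscle genes was 933431, 869378 and 1035988 in COS fat body, against 334235, 341865 and 307336 in the control whole body. The part of muscle in the fat body values was not tested. Both COS tissues carry the same treatment label, but the fat body titles include a number that the tubule titles lack and whose meaning is not given, so a like treatment is not established.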

How the data were processed

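TRIzol was used for RNA extraction and DNase I against DNA, and the genome for alignment was Tcas5.2, per the labels' protocols. The submitters' processing notes name Trimmomatic 0.32. The aligner, the counting program and the handling of shared reads: not given in the sources used here. Per the file headers, the authors deposited an expected count per gene and library, a normalized signal obtained with DESeq, FPKM, TPM and log2 fold changes. The deposited expected counts were whole numbers. The deposited log2 fold changes were used only to learn how the genes were chosen: each of the 5467 reaches an absolute value of 1 in some comparison, 3284 of them for tubules over control. Library totals were recovered from the count divided by FPKM and gene length and the authors' size factors as count divided by normalized signal. The deposited TPM and FPKM use a gene length with introns (median 2.34 times the coding length), so levels of different genes were compared per kilobase of coding length, from protein lengths in the table.

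Rounded counts were tested with edgeR 4.0.16 (R 4.3.3, quasi-likelihood F test, filterByExpr) with the authors' size factors, all 9 libraries in 1 fit and no covariate, and p-values were adjusted by Benjamini-Hochberg over 5346 genes. The SE is the absolute log2 fold change over the square root of F. TMM factors on listed genes assume that most listed genes are unchanged, which a table of selected genes need not meet, so TMM, RLE, upper-quartile factors and plain totals were alternatives, as were DESeq2 1.42.0, limma-voom 3.58.1, no filter, the 6 libraries alone, a replicate block and each library left out. On simulated counts for this comparison (5346 genes), the test found 0% of changes of 1.5-fold, 10% of those of 2-fold, 94% at 4-fold and 96% at 8-fold, with 3 false calls among 5146 unchanged genes. Far more genes passed in the data (68.7%) than were changed in the simulation, so these rates need not hold for the data.

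The labels do not say that replicates are separate animals, so the p-values rest on the spread among these samples, possibly a technical one. The members and the 24 tubule and 9 other lists, text patterns on gene names, were chosen with earlier results of these data known. Genes were named by rule: the 12 largest rises and 12 largest falls of described genes past the test, above the median level and without overlap; the 10 described genes of highest TPM in tubules; per tubule list the 2 largest rises, the largest fall and the member of highest TPM in tubules; and per other list the member of highest TPM in controls. Names were matched to RefSeq genes of assembly icTriCast1.1, used for names only. The number of per-sample value columns left unused was 0.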

Additional observations from a re-analysis of the deposited data

Results flagged for a closer look

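Among the 24 genes with the largest changes against the control whole body, 12 passed the test in opposite directions in the COS Malpighian tubules and the COS fat body, and so did 51 of the 117 named genes. Both organs were set against the same control libraries, and the genes in the table were chosen partly on the difference between the organs, so the number carries no weight of its own. The difference itself was tested as tubules over fat body with edgeR's quasi-likelihood test, and the adjusted p ran from 2.09e-07 to 3.13e-06 over these 12 genes.

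Of these, 8 were higher in the tubules. Against the fat body the log2 fold change was 6.87 for mucin-21 (LOC107397713), which stood at 5.97 for tubules over control and -0.91 for fat body over control. It was 6.24 for cytochrome P450 6a14 (LOC658760) and 6.24 for chitinase 4 (Cht4), with fat body over control at -0.93 and -1.29. The kinase annotated as clkA (LOC103314022) had 5.77, and 4-nitrophenylphosphatase (LOC662004) 7.09, with -0.98 and -2.56 for fat body over control. Monocarboxylate transporter 1 (LOC100141623) had 6.38, 4-coumarate-CoA ligase 1 (LOC657935) 5.32 and the nose resistant to fluoxetine 6-like gene (LOC658115) 6.73, with -2.02, -0.97 and -2.52 for fat body over control.

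The other 4 were lower in the tubules and higher in the fat body than in the control. Tubules over fat body gave -6.80 for phospholipase A1-like LOC656826, -6.66 for 15-hydroxyprostaglandin dehydrogenase LOC103314500, -6.99 for troponin C LOC659195 and -5.76 for nuclear factor 1 LOC660261. Fat body over control stood at 1.14, 1.36, 1.84 and 0.62 for them in that order. The summed muscle level was also higher in the COS fat body than in the control whole body. The part of muscle in these values was not tested.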

How the results depend on the processing

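The largest effect of a setting was that of scaling. Against 1256 higher and 2417 lower genes with the authors' size factors (34.2% of calls higher), TMM gave 1748 and 1621 (51.9%), RLE 1739 and 1545 (53.0%), upper-quartile factors 1521 and 1922 (44.2%) and library totals 1512 and 1946 (43.7%). DESeq2 gave 1314 and 2597, limma-voom 1262 and 2535, no filter 1275 and 2452, and the 6 libraries alone 1270 and 2524. Leaving out 1 library gave 1060 to 1321 higher and 2075 to 2621 lower. Without control replicate 3 and the fat body library that stood apart, an alternative chosen after seeing the data, there were 1132 and 2307. Of 117 named genes 109 passed the test against the control, and 96 of these did so in every setting. None of those that passed changed sign against the control. Of those that did not pass, ferritin heavy chain (LOC655492) had 0.38 and alanine aminotransferase (LOC103312991) 0.08 with TMM, against -0.12 and -0.41, and the cathepsin L precursor LOC659502 had -0.15 without tubule replicate 2, against 0.18. Homeobox protein cut (LOC659250) had no call against the COS fat body, at -0.05, and reversed to 0.61 with TMM (adjusted p = 0.0139), 0.50 with upper-quartile factors (0.0408) and 0.63 with library totals (0.0134), as the scaling shift itself moves it. The replicate block gave 1125 and 2158. Deviations of same-number samples from their group means had correlations of -0.233, -0.255 and -0.451. With 3 libraries per group these cannot settle whether the numbers pair the samples, and the labels do not say.

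The shallowest tubule library had 15175796 reads and the shallowest control 13435869. Changes of 2-fold were rarely recovered in simulation (10%), but far fewer genes were changed there than passed in the data. Depth was not varied in the simulation, so the part of depth in this rate was not tested. A gene that did not pass is not shown to be equal. Genes outside the table were not analysed here.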
